A study of Rattus norvegicus with 4 samples.

Results

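The genes described here carry a symbol made of Zfp and a number, the rodent naming scheme for zinc finger protein genes. Of 22250 genes in the count files, 231 have such a symbol. Members were selected on their counts, with at least 10 reads in at least 2 of the 4 libraries, and Zfp36, an RNA decay factor of another finger type, was left out. This gave 192 genes with 192 distinct symbols. The count rule left out 38 symbols. The symbol is a naming convention and not a test for a protein domain, so the genes need not all encode the same kind of finger. The family was singled out with earlier results of these data known, and its shared direction is therefore a description.

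The libraries are ribosome footprints, the stretches of mRNA protected by translating ribosomes, from cultured ventricular cardiomyocytes of Wistar rats aged 1 to 2 days. Both groups received siRNA for 72 h, a control siRNA in 2 libraries and an siRNA against Cpeb4 in the other 2. CPEB4 is an RNA-binding protein of the cytoplasmic polyadenylation element family, which controls poly(A) tail length and thereby translation. The growth protocol, which is the same text for all 4 libraries, also mentions inhibition of mTORC1 with 250 nM Torin1 for 24 h without saying which cells received it. The labels name no separate cultures for the replicates. The p-values then cover the spread between these libraries alone, and it may be technical. The cells are a primary culture from trypsin digestion and a Percoll gradient. Values are footprint abundances, since no matched RNA-seq was used here, and a change in mRNA cannot be told apart from a change in its translation.

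Most Zfp-named genes encode C2H2 zinc finger proteins, in which each finger folds around a zinc ion and contacts a few bases of DNA. Many also carry a KRAB domain, which recruits the scaffold TRIM28 and, through it, histone methyltransferases and heterochromatin proteins to silence genes and retroelements. The family is among the largest of mammalian transcription factor families, and many of its genes lie in clusters of similar copies. Others of the same name act in RNA processing, in ubiquitin transfer or at the ribosome. Copies with near-identical sequence lose reads when only uniquely mapped reads are counted, and values of such genes are uncertain.

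Gene counts per library lay between 3554011 (control replicate 2) and 5910911 (Cpeb4 siRNA replicate 2), and replicates of a group correlated at r = 0.986 and 0.984 across genes on the log2 scale. The siRNA target, Cpeb4, had 351 and 253 counts in the controls and 40 and 59 after its siRNA. Of 12 cardiomyocyte markers, 11 were in the files, all had counts in every library, and their summed level was 83580 to 90385 CPM in the controls and 86683 to 93869 CPM after Cpeb4 siRNA. Of these 11 genes 8 had a negative log2 fold change (median -0.10), and 0 were called by edgeR. At an unadjusted edgeR p under 0.05, 1 was higher and 1 lower, against 7.33% and 8.76% of all genes tested. CPM are counts scaled to a common library total, here with TMM, a normalisation that sets the bulk of genes equal between libraries. Of 10 fibroblast markers, 9 had counts, with Col1a2 at 0 in all libraries, and their summed level was 16460 to 17927 CPM in the controls and 12059 to 12195 CPM after Cpeb4 siRNA. Of these 9 genes 8 were negative (median -0.29) and 3 were called lower by edgeR, against 1.87% of all genes tested. Endothelial markers summed to 121 and 147 CPM in the controls and to 120 and 122 CPM after Cpeb4 siRNA. Of 6 tested 5 were negative (median -0.18) and 0 had an unadjusted edgeR p under 0.05. In 4 of the 6 both Cpeb4 siRNA libraries lay below both controls, against 22.3% of all genes tested. Macrophage and leukocyte markers summed to 762 and 534 CPM in the controls and to 552 and 650 CPM after Cpeb4 siRNA. Of 8 tested 5 were positive (median 0.06) and 0 were called by edgeR. At an unadjusted edgeR p under 0.05, 2 were lower, against 8.76% of all genes tested. Smooth muscle and pericyte markers summed to 6107 and 6252 CPM in the controls and to 6476 and 6698 CPM after Cpeb4 siRNA. Of 8 tested 6 were positive (median 0.05) and 1 was called higher by edgeR, against 1.54% of all genes tested. In bulk libraries, fewer cells of a type and less RNA per cell cannot be told apart.

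Footprints on Zfp genes leaned upward after Cpeb4 siRNA, by a small amount spread over many genes. The log2 fold change (Cpeb4 siRNA minus control) was positive for 139 of the 192 genes and negative for 53, and its median was 0.16 with quartiles of -0.02 and 0.31. Over all 11335 genes tested the median was 0.00 and 49.5% were positive. All 192 Zfp genes passed the low-count filter of the fit. Of them, 176 had at least 10 counts in all 4 libraries, and among these 128 were positive with a median of 0.16. The count rule admitted 1 gene through the Cpeb4 siRNA libraries alone, Zfp711, with 9 and 7 counts in the controls and 14 and 14 after siRNA, and none through the controls alone.

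Few Zfp genes passed the test on their own. The quasi-likelihood test of edgeR, with Benjamini-Hochberg adjustment over all genes tested and a threshold of 0.05, called 4 Zfp genes higher, or 2.08%, against 1.54% of all genes tested. It called 0 lower, against 1.87% of all genes. The share called higher over the whole family is thus near the background. At an unadjusted edgeR p under 0.05, 21 Zfp genes (10.9%) were higher and 4 (2.08%) lower, against 7.33% and 8.76% of all genes tested. DESeq2 called 0 Zfp genes at its adjusted p, and over all 11335 genes it called 71 higher and 108 lower. It gave no adjusted p to some thinly counted Zfp genes, Zfp786 and Zfp251 among them, so these could not be called by it.

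**Figure D1:**
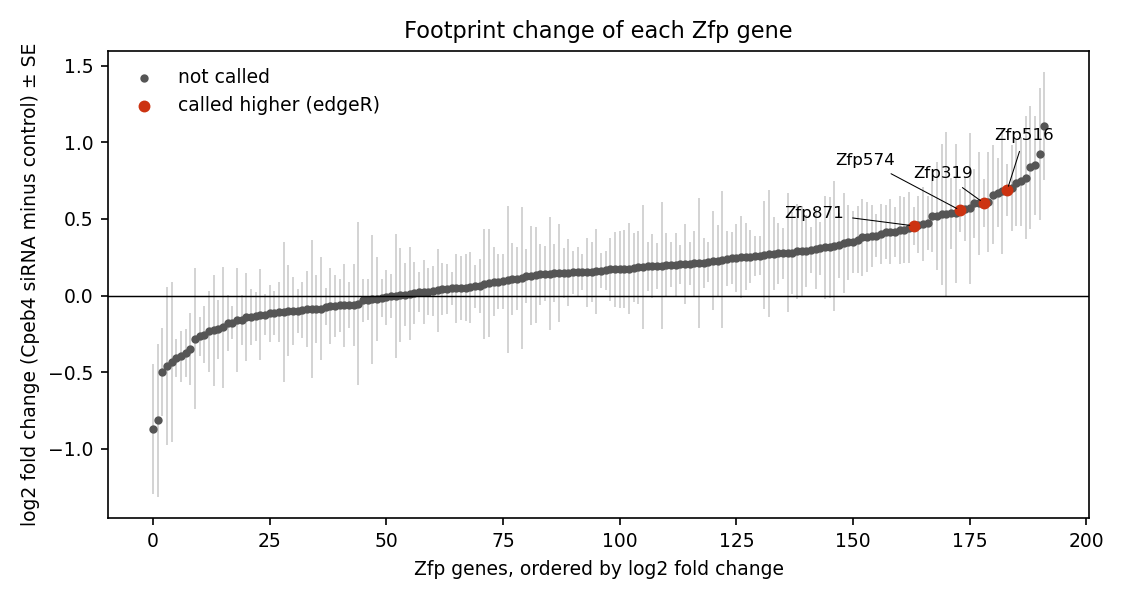
The 192 Zfp genes ordered by log2 fold change (Cpeb4 siRNA minus control), each point a gene with its standard error as a bar. The points cross 0 with 53 genes below it and 139 above, and the 4 genes called higher by edgeR lie among many uncalled genes with wider bars.

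The separation of single libraries showed the same lean. In 83 Zfp genes (43.2%) both Cpeb4 siRNA libraries lay above both controls, against 23.1% of all genes tested. In 16 Zfp genes (8.33%) both lay below, against 22.3% of all genes. A log2 fold change above 0.5 was seen for 25 Zfp genes (13.0%) and one below -0.5 for 2 (1.04%), where 4.83% and 5.94% of all genes tested passed these marks. The median standard error was 0.22 for Zfp genes and 0.17 for all genes, since Zfp genes had fewer counts.

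Pairs of libraries gave the size of this shift beside that between replicates. The median difference over the Zfp genes, on the log2(CPM + 1) scale, was 0.19 for Cpeb4 siRNA replicate 1 minus control replicate 1 and 0.14 for the same library minus control replicate 2. For Cpeb4 siRNA replicate 2 it was 0.15 and 0.09. Between the controls (replicate 2 minus replicate 1) it was 0.05, and between the Cpeb4 siRNA libraries (replicate 2 minus replicate 1) it was -0.03. Each of the 4 differences between groups was larger than either difference within a group. The smallest of them, 0.09, was closest to the difference between the controls. Medians over all genes tested lay between 0.00 and 0.01 in each of these 6 pairs. Differences that share a library are not independent of each other. By their labels, the deposited counts of Cpeb4 siRNA replicate 2 held footprint lengths from 29 to 33 nt. Those of the other 3 libraries held lengths from 29 to 34 nt. Without Cpeb4 siRNA replicate 2 the median log2 fold change was 0.18, and 141 of the 192 genes were positive.

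**Figure D2:**
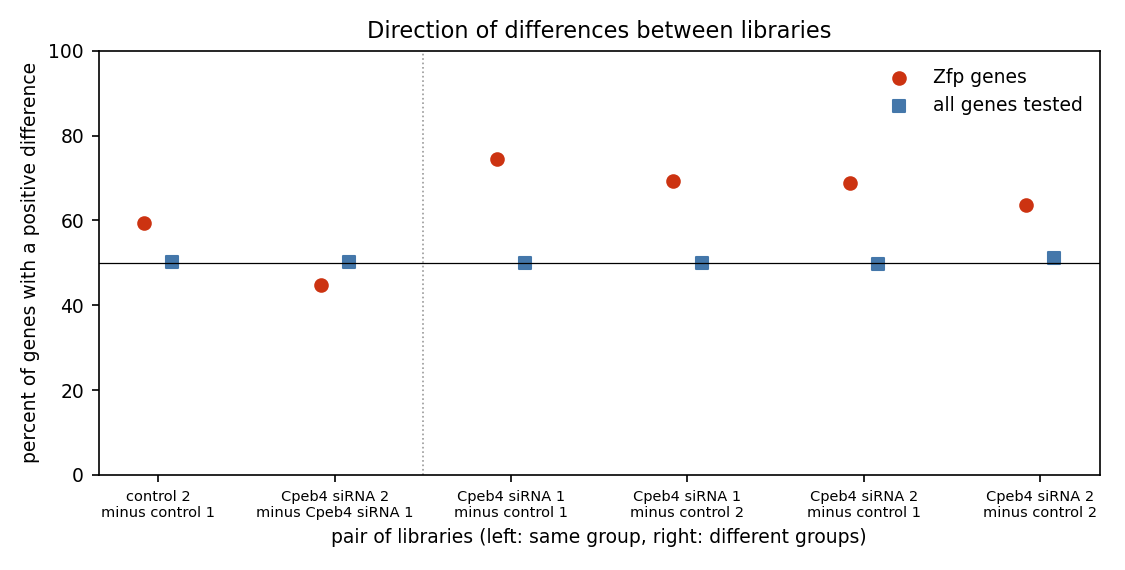
Percent of genes with a positive difference for each pair of libraries, for the 192 Zfp genes (circles) and all genes tested (squares). In pairs from different groups 63.5% to 74.5% of the Zfp genes were higher in the Cpeb4 siRNA library, and in pairs from the same group 59.4% (controls) and 44.8% (Cpeb4 siRNA) were positive, while all genes stayed between 49.8% and 51.1%.

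As a sum, the family took a small and slightly larger share of the footprints after Cpeb4 siRNA. Zfp genes held 22015 of the gene counts in control replicate 1, or 0.375% (95% Wilson interval 0.371% to 0.380%), and 13796 in control replicate 2, or 0.388% (0.382% to 0.395%). They held 20437, or 0.418% (0.412% to 0.424%), in Cpeb4 siRNA replicate 1 and 25203, or 0.426% (0.421% to 0.432%), in replicate 2. Both Cpeb4 siRNA libraries lay above both controls. These intervals cover counting error only. Scaled with TMM, the sums were 3863 ± 125 CPM (SD, n = 2) in the controls and 4184 ± 3.29 CPM (SD, n = 2) after Cpeb4 siRNA, a ratio of 1.08. Summed fibroblast markers were lower in the same libraries (above), and their part in this difference was not tested.

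The 4 genes called higher each had groups that did not overlap, a separation that a small p in the same libraries favours. Over all genes tested, 23.1% were separated in this direction. Zfp516 (ENSRNOG00000016258), a partner of CtBP corepressor complexes and an activator of the brown fat gene Ucp1, was at 20.9 and 19.2 CPM in the controls and 30.3 and 34.5 CPM after Cpeb4 siRNA. It rose 1.61-fold, a log2 fold change of 0.69 ± 0.17 (SE; edgeR adjusted p = 0.0255). Zfp319 (ENSRNOG00000013460) was at 23.5 and 25.2 CPM in the controls and at 35.2 and 38.4 CPM after siRNA. The gap between its groups was wider than the spread within either, and it rose 1.52-fold (0.60 ± 0.16, edgeR adjusted p = 0.0343).

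Zfp574 (ENSRNOG00000055761) was at 33.4 and 38.4 CPM in the controls and at 55.0 and 49.8 CPM after siRNA, a rise of 1.47-fold (0.56 ± 0.14, edgeR adjusted p = 0.0286). Zfp871 (ENSRNOG00000004947) was the most deeply counted of the 4, with 406 and 240 counts in the controls and 423 and 619 after siRNA. In CPM it was at 69.6 and 68.7 in the controls and at 86.6 and 103 after siRNA, and it rose 1.37-fold (0.45 ± 0.12, edgeR adjusted p = 0.0403). Its controls lay close together and its Cpeb4 siRNA libraries further apart. All of these calls ended in DESeq2, with adjusted p from 0.177 to 0.238, and in edgeR when control replicate 1 was left out, where adjusted p was 0.0924 for Zfp516, 0.286 for Zfp319, 0.355 for Zfp574 and 0.205 for Zfp871. Without control replicate 2 or Cpeb4 siRNA replicate 2, 1 Zfp gene remained called, Zfp574, and without Cpeb4 siRNA replicate 1, Zfp574 lost its call while Zfp516, Zfp319 and Zfp871 kept theirs and Zfp462 was called as well (0.85, edgeR adjusted p = 0.0197).

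**Figure D3:**
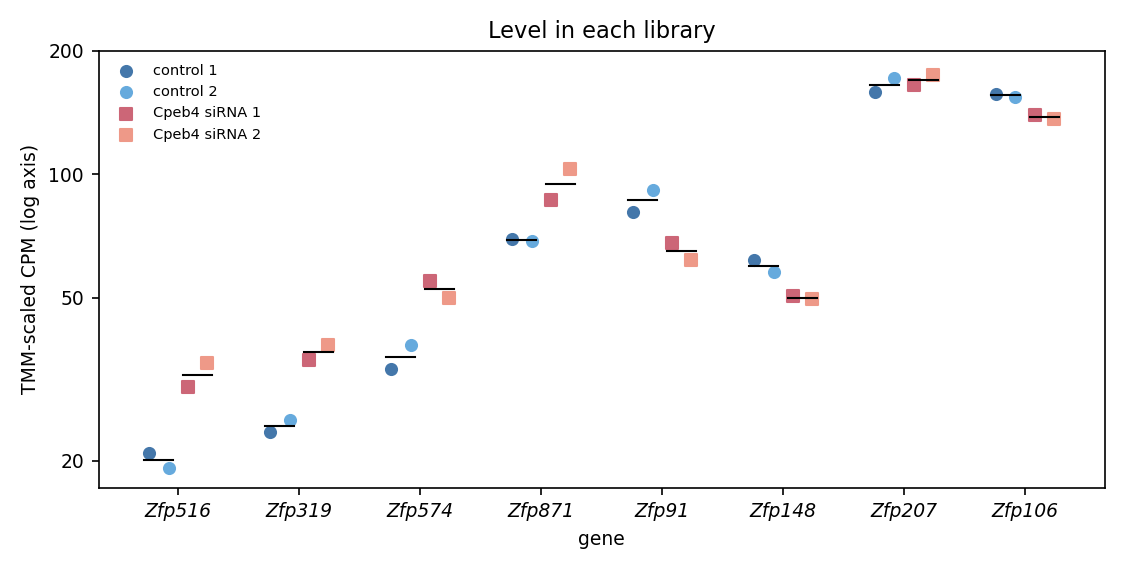
TMM-scaled CPM of 8 Zfp genes in each of the 4 libraries on a log axis, with controls as circles, Cpeb4 siRNA libraries as squares and group means as lines. The Cpeb4 siRNA libraries lie above the controls for Zfp516, Zfp319, Zfp574 and Zfp871, below them for Zfp91, Zfp148 and Zfp106, and overlap them for Zfp207.

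Start-site windows of these genes are shown because members that lean the same way could share promoter letters. RefSeq windows on the rat assembly GRCr8, from 250 bases before to 50 after an annotated start, were matched by symbol for 160 of the Zfp genes, among them Zfp516, Zfp319 and Zfp574 of the called genes. The counts themselves were made on Rnor_6.0. The window of a gene follows 1 start in that table, which was the outer edge of the RefSeq gene for 58 of the 160 genes, Zfp319 among them, and lay inside the gene for 102. It lay 12493 bases inside Zfp516, 1815 inside Zfp574 and 1236 inside Zfp91. Each line below gives 60 bases before this start and 20 from it on, with a GC box (GGGCGG or its reverse complement) in capitals. The stretch of Zfp516 is chr18:78573502-78573581 (plus strand), that of Zfp319 chr19:9708821-9708900 (plus), that of Zfp574 chr1:89800167-89800246 (plus) and that of Zfp91, the Zfp gene with the smallest p among those with a negative log2 fold change, chr1:219352399-219352478 (minus).
Zfp516: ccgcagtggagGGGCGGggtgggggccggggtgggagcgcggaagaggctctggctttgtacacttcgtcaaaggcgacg
Zfp319: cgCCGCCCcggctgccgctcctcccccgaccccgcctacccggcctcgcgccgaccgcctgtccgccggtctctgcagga
Zfp574: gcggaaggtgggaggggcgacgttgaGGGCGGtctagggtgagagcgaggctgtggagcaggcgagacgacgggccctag
Zfp91: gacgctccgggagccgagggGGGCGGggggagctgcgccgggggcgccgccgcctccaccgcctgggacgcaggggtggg

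A GC box was in each of the 4 stretches, including that of Zfp91, whose level was lower after Cpeb4 siRNA. How often other genes have a GC box in a stretch of this length was not counted. In the full windows it was found for 81 of the 160 Zfp genes (50.6%), 64.3% of 8813 genes tested and 34.9% of all 27457 RefSeq windows. Zfp genes with and without it had the same median log2 fold change of 0.15, with 67.9% and 78.5% positive. The CCAAT box (CCAAT) was in 42.5% of the Zfp windows and 37.9% of those of all genes tested, the ETS core (CCGGAAG) in 32 of the 160 and in 18.3%, and the YY1 core (ATGGCGGC) in 7.5% and 6.22%. All were searched on both strands, and none of these words contains another. Zfp genes with and without the CCAAT box had medians of 0.15 and 0.15, those with and without the ETS core 0.17 and 0.15, and those with and without the YY1 core 0.17 and 0.15. A start on C followed by 4 pyrimidines, the form of the terminal oligopyrimidine tract that mTORC1 acts through, was annotated for 6 of the 160 Zfp genes (3.75%) and 2.72% of the genes tested. Those 6 Zfp genes had a median log2 fold change of 0.22 with 5 positive. The 154 Zfp genes without such a start had 0.15 with 112 positive. Over all genes tested, 49.2% with such a start and 49.5% without it were positive. The difference was not tested. Letters in these windows are a description, and the annotated start need not be the one used in these cells.

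The largest uncalled differences were in thinly counted genes. Zfp786 had 16 and 15 counts in the controls and 39 and 40 after Cpeb4 siRNA, which is 2.74 and 4.30 CPM against 7.98 and 6.64 CPM. Its groups did not overlap and its log2 fold change of 1.11 ± 0.35 was the largest of the family, but it did not pass (edgeR adjusted p = 0.094). Zfp90, a KRAB protein known as a partner of the neuronal silencer REST, was at 3.94 and 5.44 CPM in the controls and at 9.62 and 6.98 CPM after siRNA (0.85 ± 0.33, edgeR adjusted p = 0.18). Zfp426 had 12 and 8 counts against 16 and 29 (0.92 ± 0.43). Zfp954 had 30 and 5 counts in the controls, a wider spread than that between its groups, and 34 and 37 after siRNA (0.84 ± 0.40). Without control replicate 1 the Zfp954 value was 2.17, and without control replicate 2 it was 0.34.

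At the other end, negative values of similar size were fewer and also thinly counted. Zfp872 had 22 and 14 counts in the controls and 10 and 13 after Cpeb4 siRNA, which is 3.77 and 4.01 CPM against 2.05 and 2.16 CPM (-0.87 ± 0.43, edgeR adjusted p = 0.32). Zfp597 had 24 and 10 counts against 16 and 6, with groups that overlapped (-0.81 ± 0.50). Without Cpeb4 siRNA replicate 1 the Zfp597 value was -1.83, and without Cpeb4 siRNA replicate 2 it was -0.14. Zfp251 (-0.50 ± 0.29) and Zfp560 (-0.46 ± 0.52) did not pass either. Zfp560 is also the gene just inside the count rule, with 12, 8, 7 and 10 counts in control replicates 1 and 2 and Cpeb4 siRNA replicates 1 and 2. Just outside lay Zfp2, with 11, 1, 9 and 9 counts, and Zfp418, with 8, 2, 9 and 11, in the same order.

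The 4 Zfp genes that were lower at an unadjusted edgeR p under 0.05 were well counted. Zfp91 (ENSRNOG00000012524), a ubiquitin ligase that acts in NF-kappaB signalling, was at 80.9 and 91.6 CPM in the controls and at 68.1 and 61.8 CPM after Cpeb4 siRNA. Its groups did not overlap and its log2 fold change was -0.41 ± 0.12, short of the threshold (edgeR adjusted p = 0.0758). Without the low-count filter its edgeR adjusted p was 0.0473. Zfp830, a splicing-associated factor, was at 33.8 and 30.1 CPM in the controls and at 22.9 and 25.8 CPM after siRNA (-0.40 ± 0.16, edgeR adjusted p = 0.22). Zfp148, also called ZBP-89, binds GC-rich promoters and was at 61.7 and 57.9 CPM against 50.3 and 49.5 CPM (-0.26 ± 0.13, edgeR adjusted p = 0.31). Zfp496, named after its value was seen, was at 34.5 and 41.2 CPM against 26.6 and 31.1 CPM (-0.37 ± 0.16, edgeR adjusted p = 0.23). In each of these 4 genes both Cpeb4 siRNA libraries lay below both controls, as in 22.3% of all genes tested. The choice by a small p in the same libraries favours such a separation, so it adds no support.

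The Zfp genes with the most counts differed little, apart from Zfp871 (above). Zfp207, a spindle assembly factor that binds Bub3, had 924 and 598 counts in the controls and 806 and 1053 after siRNA, and its groups overlapped in CPM (0.05 ± 0.11). Zfp106, an RNA-binding protein needed for motor neuron and muscle maintenance, was at 157 and 154 CPM in the controls and at 139 and 137 CPM after siRNA (-0.18 ± 0.11, edgeR adjusted p = 0.45). Zfp638, which binds RNA and nucleic acids of foreign origin and recruits a silencing complex to them, was at 79.1 and 83.9 CPM against 86.6 and 94.0 CPM (0.15 ± 0.12). Zfp644, a partner of the H3K9 methyltransferases EHMT1 and EHMT2, was at 78.2 and 77.3 CPM against 89.2 and 85.0 CPM (0.16 ± 0.12). Zfp266 had controls of 65.5 and 84.5 CPM that lay on either side of its Cpeb4 siRNA libraries, at 74.9 and 75.9 CPM (0.02 ± 0.13). None of these 5 genes passed.

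By role, positive values were in the majority in each of 5 lists, and 1 to 3 members were negative in 4 of them. Of 9 members in a list of RNA and ribosome factors, 6 were positive and 3 negative, with a median of 0.15. Its 1 called gene was Zfp871, which was placed there with no role stated here, so the call is no result about RNA or ribosome factors. Over all genes tested, 49.5% were positive and 1.54% called higher. Zfp598, the ubiquitin ligase that marks collided ribosomes, was at 36.7 and 36.4 CPM in the controls and at 38.7 and 42.4 CPM after siRNA (0.15 ± 0.14, edgeR adjusted p = 0.67). Its groups did not overlap by a narrow gap. Of 3 ubiquitin and SUMO ligases, which include Zfp598, 0 passed by edgeR. Of these 3, 1, Zfp91, was lower at an unadjusted edgeR p under 0.05, against 8.76% of all genes tested. The third of them, the SUMO ligase Zfp451, had controls of 45.6 and 47.5 CPM between its Cpeb4 siRNA libraries at 39.3 and 54.8 CPM (0.03 ± 0.15).

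Of 12 heart, muscle and lineage regulators, 9 were positive, 3 negative and 1, Zfp516, rose, with a median of 0.17. Of all genes tested 49.5% were positive and 1.54% were called higher. Zfp281, a regulator of pluripotency genes, was at 67.9 and 62.7 CPM in the controls and at 68.3 and 78.2 CPM after siRNA (0.16 ± 0.12), so that its groups were separated by less than the spread within either. Zfp384, a nuclear matrix protein that restrains bone formation, overlapped between groups (-0.06 ± 0.15). Zfp462, a heterochromatin-associated factor in this list and the next, was at 18.5 and 17.2 CPM against 20.3 and 32.4 CPM (0.57 ± 0.21, edgeR adjusted p = 0.16). Its difference came mostly from Cpeb4 siRNA replicate 2.

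Of 10 chromatin partners, 8 were positive, 2 negative and 1 rose, with a median of 0.19. The call is again Zfp516, the same gene as in the list before, and the shares over all genes were those just given, 49.5% positive and 1.54% called higher. Zfp592 and Zfp532, which form a complex with ZMYND8 on chromatin, had log2 fold changes of 0.21 ± 0.14 and 0.22 ± 0.13, and neither passed. In both, the Cpeb4 siRNA libraries lay above the controls. Zfp592 was at 38.8 and 39.2 CPM against 41.1 and 48.7 CPM, and Zfp532 at 51.6 and 46.1 CPM against 58.3 and 56.0 CPM. Of 3 KRAB repressors of imprinted loci and retroelements, 3 were positive and 0 passed by edgeR, nor had any an unadjusted edgeR p under 0.05. DESeq2 called 0 of them and gave Zfp708 no adjusted p. Zfp57, which keeps methylation at imprinted loci, was at 14.6 and 14.9 CPM against 17.6 and 19.8 CPM (0.35 ± 0.20, edgeR adjusted p = 0.42). Zfp445, which shares that task, was at 56.9 and 66.2 CPM against 69.6 and 76.6 CPM (0.26 ± 0.13, edgeR adjusted p = 0.32). Zfp708, a repressor of a mouse retroelement, overlapped between groups (0.31 ± 0.34).

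The upward lean was seen in each class of mean level. Zfp genes were thinly counted, with a median of 14.0 CPM over the 4 libraries against 28.3 CPM for all genes tested, and a range from 1.86 to 167 CPM. Of 32 Zfp genes under 5 CPM, 20 were positive, with a median of 0.16 against -0.04 for all genes in that class. Between 5 and under 10 CPM, 28 of 35 were positive, with a median of 0.23 against -0.02. Between 10 and under 20 CPM, 48 of 59 were positive, with a median of 0.17 against 0.01. At 20 CPM and above, 43 of 66 were positive, with a median of 0.11 against 0.00. The Cpeb4 siRNA libraries lay above both controls for 8 of the 32 Zfp genes in the lowest class, against 19.5% of all genes in it. In the other classes, in rising order, this held for 45.7%, 47.5% and 47.0% of the Zfp genes and for 20.6%, 22.5% and 24.5% of all genes.

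The size of the median did not follow the level in order, and the 4 called genes were all at 20 CPM and above, where standard errors were smallest. They were 6.06% of the 66 Zfp genes in that class, where 153 of all 6781 genes (2.26%) were called higher. The median standard error fell from 0.43 under 5 CPM to 0.16 at 20 CPM and above for the Zfp genes. Across the 192 Zfp genes, mean level (log2 CPM) and log2 fold change had a Pearson correlation of -0.10 and a Spearman correlation of -0.13, and across all 11335 genes tested these were -0.00 and -0.01. These correlations are across genes of the same 4 libraries, and genes are not independent replicates. Without Cpeb4 siRNA replicate 1, the median of the class under 5 CPM was 0.04, and without control replicate 1 it was 0.27. In the class at 20 CPM and above it was between 0.07 and 0.14 with 1 library left out. CPM are not divided by gene length, so these classes order genes by how deeply they were counted and not by how strongly they were translated.

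**Figure D4:**
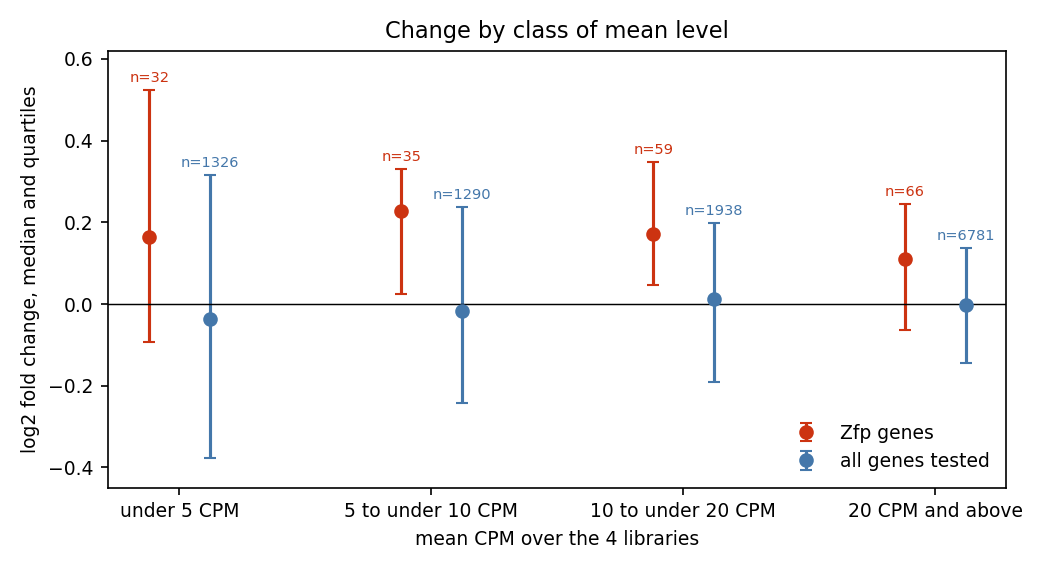
Median log2 fold change (points) with quartiles (bars) in 4 classes of mean CPM, for Zfp genes and for all genes tested, with the number of genes above each bar. The Zfp medians lie between 0.11 and 0.23, above the medians of all genes, which lie between -0.04 and 0.01, and the quartiles of the 2 sets overlap in every class.

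Position in the genome divided the family without changing its direction. By RefSeq gene order on GRCr8, 80 of 186 matched Zfp genes lay next to another gene with a Zfp, Znf, Zscan or Zkscan symbol, as is usual for tandem clusters. Their median log2 fold change was 0.13, with 54 positive. The 106 Zfp genes outside such neighbourhoods had a median of 0.18, with 82 positive. The difference between the 2 sets was not tested.

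Other zinc finger symbols leaned the same way. Of 14 Zscan and Zkscan genes, 12 were positive, and the median was 0.14. In edgeR 0 of them passed, and DESeq2 and limma-voom called 0. An unadjusted edgeR p under 0.05 was seen for 2 of the 14, both higher, against 7.33% of all genes tested. Of 35 Zbtb genes, which pair zinc fingers with a BTB domain and are counted here without Zbtb20, 23 were positive with a median of 0.12. Both Cpeb4 siRNA libraries lay above both controls for 34.3% of these Zbtb genes and below for 8.57%. Of all genes tested 23.1% and 22.3% did so. In edgeR 0 of the Zbtb genes were called higher and 1 (2.86%) lower, against 1.54% and 1.87% of all genes tested. The gene called lower was Zbtb41, named after its value was seen (-0.72 ± 0.20, edgeR adjusted p = 0.0455). Its edgeR adjusted p was 0.639 without control replicate 1, 0.0948 and 0.175 without Cpeb4 siRNA replicates 1 and 2, 0.052 with the filter of 30 counts and 0.0531 when the fit held replicate numbers as a block, and each of these ended its call. The Zbtb41 call stood in limma-voom (limma-voom adjusted p = 0.0491). It also stood in edgeR under both other scalings, without a low-count filter and without the 20 most abundant genes. DESeq2 called 0 of the Zbtb genes and limma-voom called 1. The lean is therefore not shown to be particular to the Zfp symbol.

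The machinery through which KRAB zinc finger proteins silence genes did not lean the same way. Of 32 listed corepressor genes, 30 were tested, 16 were positive and 14 negative, and the median was 0.04. Cbx3 was among those not tested, with 0 and 2 counts in the controls and 1 and 0 after Cpeb4 siRNA. The test called 0 of them in edgeR and 0 in DESeq2, and 4 had an unadjusted edgeR p under 0.05, 1 higher and 3 lower, against 7.33% and 8.76% of all genes tested. Both Cpeb4 siRNA libraries lay below both controls for 10 of the 30 and above them for 4, where 22.3% and 23.1% of all genes did so. The scaffold Trim28 was at 308 and 334 CPM in the controls and at 318 and 308 CPM after Cpeb4 siRNA (-0.04 ± 0.10), its groups overlapped, and its sign turned without control replicate 2 (0.025). The H3K9 methyltransferase Setdb1 had a log2 fold change of -0.17 ± 0.12. The genes with the smallest p were the nucleosome remodelling subunits Mbd3 (-0.34 ± 0.14) and Gatad2b (-0.26 ± 0.11), the methyltransferase Ehmt1 (0.27 ± 0.13) and the chromatin remodeller Atrx (-0.29 ± 0.14). Their edgeR adjusted p ranged from 0.229 to 0.308. The Zfp gene Zfp57 is a member of this list as well, and its log2 fold change of 0.35 is the largest in it.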

How the data were processed

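The authors deposited raw counts of reads for each Ensembl gene, with no normalisation. Per the submitters' processing notes, Bowtie2, STAR 2.7, HTSeq 0.12 and Rnor_6.0 were used, with roles not stated. The strand setting was not given in the sources used here, and overlapping and antisense genes are uncertain. Reads without a feature (4.42% to 4.63%) and the other HTSeq summary rows were left out.

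R 4.3.3 and edgeR 4.0.16 were used for the quasi-likelihood test, with TMM, filterByExpr (minimum count 10), a model of the group alone and Benjamini-Hochberg adjustment across 11335 genes. SE was derived from the F statistic. Log2 fold changes are given ± SE, and summed CPM values are mean ± SD over 2 libraries. Alternatives used DESeq2 1.42.0, limma-voom 3.58.1, other scalings and filters, the replicate number as a block, and each library left out, where the lone library is assumed to vary like the other group. On simulated counts for this comparison with 11335 genes, the test recovered 44% at a 1.5-fold, 76% at a 2-fold and 94% at a 3-fold change. Of 164 calls on these counts 10 were false. The simulated spread between libraries followed a trend over level, with no further differences between genes of the same level. In the real data recovery may therefore be lower and the share of false calls higher. The changed genes were drawn from all genes tested, and recovery for the more thinly counted Zfp genes was not simulated.

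The members and lists were chosen with earlier results of these data known. Named genes were the called members (up to 15 a direction), the 6 with most counts, the 4 uncalled extremes a direction, the corepressor genes with the smallest p, and called or most counted members of 5 role lists. Others are marked as chosen after their values were seen, apart from Zfp711, Zfp2, Zfp418, Zfp462, Zfp830, Trim28 and Setdb1, which also lie outside that rule. Protein features were not analysed here.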

Additional observations from a re-analysis of the deposited data

How the results depend on the processing

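The median over the Zfp genes stayed positive under every alternative run, from 0.13 without Cpeb4 siRNA replicate 1 to 0.18 without Cpeb4 siRNA replicate 2, and 131 to 145 of 192 genes were positive with 1 library left out. The number of Zfp genes called higher was 4 under both other scalings, limma-voom, the stricter filter of 30 counts and the omission of the 20 most abundant genes, and 5 without a low-count filter or at a threshold of 0.10. It was 0 in DESeq2 and 0 to 4 with 1 library left out. The number called lower was 1 without a low-count filter and 1 at a threshold of 0.10. Over all genes, 386 were called by edgeR, 606 without a low-count filter, 629 at a threshold of 0.10, 179 in DESeq2 and 212 to 318 with 1 library left out. No corepressor gene was called under any of these alternatives. With the replicate number as a block, 4 Zfp genes and 403 genes in all were called. Deviations of same-numbered libraries correlated at -0.109, and with the numbers crossed, chosen after seeing the data, 4 and 481 were called. The alternatives were run for 39 genes named in the text, and the sign turned for 6 of them, all uncalled. With 1 library left out, Zfp207 ranged from -0.012 (without control replicate 1) to 0.10, Zfp266 from -0.16 (without control replicate 1) to 0.21, Zfp451 from -0.24 (without Cpeb4 siRNA replicate 2) to 0.24, Zfp384 from -0.19 to 0.046 (without control replicate 2) Zfp708 from -0.057 (without Cpeb4 siRNA replicate 2) to 0.59 and Trim28 from -0.096 to 0.025 (without control replicate 2). Zfp451 also turned without control replicate 1 (-0.0081) and with the replicate block (-0.0052). Depth limits the family, since a median of 285 reads per gene over the 4 libraries gave a median SE of 0.22.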
